A study of Homo sapiens with 20 samples.

Results

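The genes of the aminoacyl-tRNA synthetases were followed in 5 human cancer cell lines treated with torkinib or left untreated. The members were 36 gene symbols, 20 for cytosolic enzymes and 16 for mitochondrial ones, whose symbols end in 2. Of these, 35 had a row among the 50775 features counted, all 20 cytosolic and 15 mitochondrial ones, and all 35 passed the filter on low counts that left 16698 genes for testing. Expression of SARS2, for the mitochondrial seryl enzyme, was not analysed here, though its promoter was searched. Torkinib (PP242) is a competitive inhibitor of ATP binding in the kinase MTOR. Treatment lasted 72 h, at 10 µM in 94T778 (a well differentiated liposarcoma line), 4 µM in A375 and SKMEL28 (melanoma lines), 0.8 µM in SKBR3 and 4 µM in AU565 (breast cancer lines). Each line had 2 torkinib and 2 untreated libraries, 20 in all, and no time is given for the untreated cells. Per the labels, each dose was set to stop the cell cycle without loss of viability, so line and dose cannot be told apart, except that A375, SKMEL28 and AU565 had the same dose. The lines also grew in different media: RPMI for 94T778 and SKBR3, RPMI with added pyruvate and bicarbonate for AU565, DMEM for A375 and MEM for SKMEL28.

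Aminoacyl-tRNA synthetases join each amino acid to its own transfer RNA, the step that sets the genetic code before the ribosome reads it. Nuclear genes encode separate enzymes for the cytosol and for the mitochondrion, except that GARS and KARS each give both forms, and the glutaminyl enzyme QARS has no mitochondrial relative because mitochondria make that aminoacyl-tRNA by another route. Several cytosolic enzymes sit in a multi-synthetase complex on the scaffold proteins AIMP1, AIMP2 and EEF1E1. Many cytosolic synthetase genes are known targets of ATF4, the transcription factor of the amino acid and stress response, whose translation is controlled by uncharged tRNA through the kinase GCN2 and also by MTOR.

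Counted reads were 4040023 to 9737903 per library. The melanocyte list summed to 7612 and 7980 CPM in untreated SKMEL28, to 646 and 712 CPM in untreated A375, and to 40.7 CPM or less in the other untreated lines. The 12q amplicon list marked 94T778, with 11971 and 12153 CPM untreated against 1010 CPM or less in other untreated lines, while its adipocyte list summed to 6.10 CPM or less. The luminal and HER2 list stood at 19875 CPM or more in untreated SKBR3 and AU565 and at 477 CPM or less elsewhere. A list of blood and endothelial genes summed to at most 30.5 CPM in untreated libraries. It reached 158 CPM with torkinib in SKBR3, nearly all from CDH5, and its part in the results was not tested. A375 untreated replicate 1 held 14 genes found otherwise in 94T778 at a median 2.04% of their 94T778 level, against 0.0608% in replicate 2. SKBR3 untreated replicate 1 had 7.63% mitochondrially encoded counts and its partner 4.44%. These libraries are the doubted ones below. Genes for this check were chosen after values were seen. No label states that the libraries of a group came from separate cultures, so p-values cover the spread of these libraries, which may be technical. Measured against sampling noise, the 2 libraries of untreated SKBR3 differed by a chi-square per gene of 11.1, against 1.34 to 3.15 in other groups. All groups shared 1 estimate of the spread, so p-values for SKBR3 may be too small.

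Most cytosolic synthetase genes fell with torkinib in 4 lines, and most rose in AU565. In 94T778, 18 of 20 cytosolic genes fell and none rose by edgeR's quasi-likelihood test at an adjusted p below 0.05, against 23.8% of all genes lower and 23.8% higher. In A375, 14 fell and 3 rose, beside 24.3% and 18.5% of all genes. In SKMEL28, 12 fell and 1 rose, beside 23.7% and 20.4%. In SKBR3, 12 fell and 3 rose, beside 26.7% and 24.6%. In AU565 12 rose and 4 fell, beside 26.9% of all genes higher and 28.6% lower. The median log2 fold change (torkinib over untreated) of the 20 genes was -0.87 in A375, -0.40 in SKMEL28, -0.45 in 94T778, -0.35 in SKBR3 and 0.34 in AU565, beside a median over all genes tested of -0.015 in A375 and of 0 to that precision in the other lines. Without the doubted libraries described above, 15 fell and 3 rose in A375, and 14 fell and 2 rose in SKBR3. Without other single libraries, 1 to 3 genes rose in A375.

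Mitochondrial synthetase genes had median changes below 0 in every line, with SKBR3 the lowest. Of 15, 4 fell and 1 rose in 94T778, 4 fell and 1 rose in A375, 5 fell and 3 rose in SKMEL28, 10 fell and 1 rose in SKBR3, and 6 fell and 2 rose in AU565. Over all genes the shares that fell were 23.8%, 24.3%, 23.7%, 26.7% and 28.6% in that order, and those that rose 23.8%, 18.5%, 20.4%, 24.6% and 26.9%. The mitochondrial counts of falls in 94T778 and A375 and of rises in SKMEL28 were thus near the share of all genes. Fewer mitochondrial genes fell in SKBR3 when that line was fitted alone. The mitochondrial median change was -0.16, -0.13, -0.091, -0.38 and -0.087 in 94T778, A375, SKMEL28, SKBR3 and AU565, and the AU565 median was 0.028 with upper quartile factors. On the average of the lines, 17 cytosolic genes fell and 2 rose, and 9 mitochondrial genes fell and 3 rose, beside 28.1% of all genes lower and 28.4% higher. Falls in at least 4 lines were found for 8 cytosolic and 4 mitochondrial genes, beside 10.6% of all genes, and no member rose in all 5 lines, beside 2.26%. Rises in 1 line and falls in another were found for 15 cytosolic and 3 mitochondrial genes, beside 24.0%, and the mitochondrial count was near that share. The map of log2 fold changes shows the cytosolic block, mostly lower in both melanoma lines and mostly higher in AU565.

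**Figure D1:**
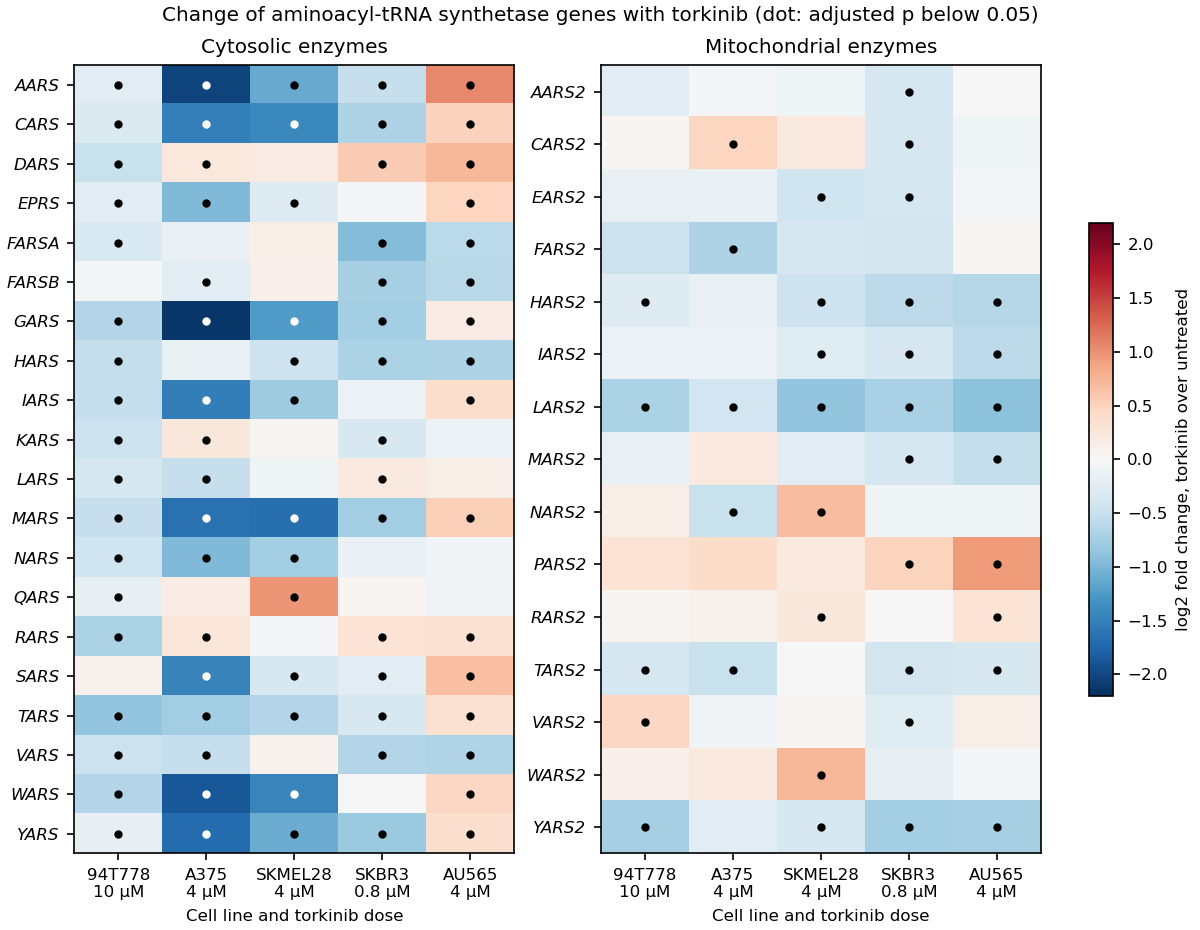
Log2 fold changes (torkinib over untreated, colour scale) of 20 cytosolic and 15 mitochondrial synthetase genes (rows) in 5 lines (columns, with the torkinib dose); a dot marks an adjusted p below 0.05. AARS runs from -2.04 in A375 to 1.05 in AU565, and LARS2 is lower in all 5 lines.

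The 12 cytosolic genes that rose in AU565 included those with the deepest falls in the melanoma lines. AARS encodes the alanyl enzyme. AARS stood at 192 and 188 CPM with torkinib against 225 and 224 CPM untreated in 94T778, at 177 and 175 CPM with torkinib against 718 and 726 CPM untreated in A375 and at 121 and 120.4 CPM with torkinib against 271 and 253 CPM untreated in SKMEL28. For AARS the breast lines gave 216 and 214 CPM with torkinib against 327 and 285 CPM untreated in SKBR3 and 203 and 223 CPM with torkinib against 105 and 101 CPM untreated in AU565. AARS libraries with torkinib lay above the untreated ones in AU565 and below them in 94T778, A375, SKMEL28 and SKBR3. AARS had log2 fold changes of -2.04 in A375, -1.11 in SKMEL28, -0.24 in 94T778, -0.51 in SKBR3 and 1.05 in AU565 (SE 0.077 to 0.080), and all 5 passed the test. The AARS result in 94T778 no longer passed without torkinib replicate 2, or with library totals in place of TMM factors, where it was -0.23 to -0.13 with adjusted p of 0.0603 to 0.165. A375 minus SKMEL28, at the same dose, was -0.92 (SE 0.11, edgeR adjusted p = 1.99e-08).

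GARS encodes the glycyl enzyme of cytosol and mitochondrion. GARS stood at 237 and 232 CPM with torkinib against 369 and 360.4 CPM untreated in 94T778, at 158 and 171 CPM with torkinib against 743 and 709 CPM untreated in A375 and at 184 and 172 CPM with torkinib against 417 and 428 CPM untreated in SKMEL28. For GARS the breast lines gave 345 and 381 CPM with torkinib against 631 and 583 CPM untreated in SKBR3 and 345 and 330.4 CPM with torkinib against 290.5 and 303 CPM untreated in AU565. GARS libraries with torkinib lay above the untreated ones in AU565 and below them in 94T778, A375, SKMEL28 and SKBR3. GARS had log2 fold changes of -2.14 in A375, -1.24 in SKMEL28, -0.64 in 94T778, -0.74 in SKBR3 and 0.19 in AU565 (SE 0.074 to 0.078), and all 5 passed the test. The GARS result in AU565 no longer passed without untreated replicate 1, untreated replicate 2, torkinib replicate 1 or torkinib replicate 2, or with no filter on low counts, where it was 0.13 to 0.21 with adjusted p of 0.0682 to 0.303. Its value in A375 was the lowest of the 35 genes in any line.

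MARS encodes the methionyl enzyme, which also charges the initiator tRNA and belongs to the complex. MARS stood at 111 and 117 CPM with torkinib against 167 and 159.8 CPM untreated in 94T778, at 172 and 171 CPM with torkinib against 531 and 541 CPM untreated in A375 and at 60.6 and 65.3 CPM with torkinib against 203 and 193 CPM untreated in SKMEL28. For MARS the breast lines gave 190.2 and 202 CPM with torkinib against 357 and 314 CPM untreated in SKBR3 and 212 and 218 CPM with torkinib against 146 and 153 CPM untreated in AU565. MARS libraries with torkinib lay above the untreated ones in AU565 and below them in 94T778, A375, SKMEL28 and SKBR3. MARS had log2 fold changes of -1.64 in A375, -1.65 in SKMEL28, -0.51 in 94T778, -0.77 in SKBR3 and 0.52 in AU565 (SE 0.077 to 0.083), and all 5 passed the test. WARS, for the tryptophanyl enzyme, is also known as an interferon-induced gene. WARS stood at 87.95 and 82.5 CPM with torkinib against 134 and 131 CPM untreated in 94T778, at 135 and 129 CPM with torkinib against 483 and 475 CPM untreated in A375 and at 65.1 and 62.7 CPM with torkinib against 178 and 171 CPM untreated in SKMEL28. For WARS the breast lines gave 80.1 and 84.7 CPM with torkinib against 79.4 and 83.6 CPM untreated in SKBR3 and 118 and 122 CPM with torkinib against 88.3 and 86.9 CPM untreated in AU565. WARS libraries with torkinib lay above the untreated ones in AU565 and below them in 94T778, A375 and SKMEL28, and the groups overlapped in SKBR3. WARS had log2 fold changes of -1.86 in A375, -1.44 in SKMEL28, -0.64 in 94T778, 0.016 in SKBR3 and 0.46 in AU565 (SE 0.074 to 0.085), and all passed except SKBR3 (adjusted p = 0.95).

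IARS encodes the isoleucyl enzyme of the complex. IARS stood at 237 and 247 CPM with torkinib against 348 and 349 CPM untreated in 94T778, at 291 and 302 CPM with torkinib against 860.3 and 832 CPM untreated in A375 and at 320.4 and 315 CPM with torkinib against 539 and 555 CPM untreated in SKMEL28. For IARS the breast lines gave 259 and 273 CPM with torkinib against 282 and 301 CPM untreated in SKBR3 and 262 and 250.4 CPM with torkinib against 199 and 194 CPM untreated in AU565. IARS libraries with torkinib lay above the untreated ones in AU565 and below them in 94T778, A375, SKMEL28 and SKBR3. IARS had log2 fold changes of -1.51 in A375, -0.78 in SKMEL28, -0.53 in 94T778, -0.13 in SKBR3 and 0.38 in AU565 (SE 0.070 to 0.073), and all passed except SKBR3 (adjusted p = 0.136). YARS encodes the tyrosyl enzyme. YARS stood at 165 and 148 CPM with torkinib against 183 and 174 CPM untreated in 94T778, at 162 and 153 CPM with torkinib against 515 and 508 CPM untreated in A375 and at 136 and 137 CPM with torkinib against 291 and 288 CPM untreated in SKMEL28. For YARS the breast lines gave 141 and 146 CPM with torkinib against 265 and 244 CPM untreated in SKBR3 and 143 and 131 CPM with torkinib against 107 and 106 CPM untreated in AU565. YARS libraries with torkinib lay above the untreated ones in AU565 and below them in 94T778, A375, SKMEL28 and SKBR3. YARS had log2 fold changes of -1.70 in A375, -1.08 in SKMEL28, -0.19 in 94T778, -0.82 in SKBR3 and 0.36 in AU565 (SE 0.076 to 0.080), and all 5 passed the test. The YARS result in 94T778 no longer passed without untreated replicate 1, untreated replicate 2 or torkinib replicate 2, or with upper quartile factors, library totals in place of TMM factors or no filter on low counts, where it was -0.22 to -0.079 with adjusted p of 0.0668 to 0.438.

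CARS encodes the cysteinyl enzyme. CARS stood at 72.9 and 71.7 CPM with torkinib against 94.8 and 85.4 CPM untreated in 94T778, at 77.4 and 84.5 CPM with torkinib against 226 and 234 CPM untreated in A375 and at 64.7 and 60.4 CPM with torkinib against 169.5 and 165 CPM untreated in SKMEL28. For CARS the breast lines gave 107 and 96.2 CPM with torkinib against 179 and 147 CPM untreated in SKBR3 and 78.2 and 73.5 CPM with torkinib against 57.01 and 49.1 CPM untreated in AU565. CARS libraries with torkinib lay above the untreated ones in AU565 and below them in 94T778, A375, SKMEL28 and SKBR3. CARS had log2 fold changes of -1.51 in A375, -1.42 in SKMEL28, -0.32 in 94T778, -0.68 in SKBR3 and 0.51 in AU565 (SE 0.092 to 0.10), and all 5 passed the test. The CARS result in 94T778 no longer passed without untreated replicate 1, or with library totals in place of TMM factors, where it was -0.24 to -0.21 with adjusted p of 0.0729 to 0.117. SARS, for the seryl enzyme, fell deepest in A375. SARS stood at 235 and 219.9 CPM with torkinib against 213 and 212 CPM untreated in 94T778, at 143 and 134 CPM with torkinib against 392 and 379.7 CPM untreated in A375 and at 305 and 308 CPM with torkinib against 380.5 and 405 CPM untreated in SKMEL28. For SARS the breast lines gave 239.8 and 245 CPM with torkinib against 289.6 and 278 CPM untreated in SKBR3 and 247 and 248 CPM with torkinib against 153 and 161 CPM untreated in AU565. SARS libraries with torkinib lay above the untreated ones in 94T778 and AU565 and below them in A375, SKMEL28 and SKBR3. SARS had log2 fold changes of -1.47 in A375, -0.36 in SKMEL28, 0.10 in 94T778, -0.22 in SKBR3 and 0.66 in AU565 (SE 0.070 to 0.075), and all passed except 94T778 (adjusted p = 0.279). The SARS result in SKBR3 no longer passed without torkinib replicate 1, or with the fit of the 4 libraries alone, where it was -0.21 with adjusted p of 0.0578 to 0.0903.

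TARS encodes the threonyl enzyme. TARS stood at 158 and 138 CPM with torkinib against 267 and 273 CPM untreated in 94T778, at 225 and 241 CPM with torkinib against 401 and 393 CPM untreated in A375 and at 127 and 127 CPM with torkinib against 193 and 204 CPM untreated in SKMEL28. For TARS the breast lines gave 309 and 331 CPM with torkinib against 414 and 403 CPM untreated in SKBR3 and 281 and 276 CPM with torkinib against 217 and 224 CPM untreated in AU565. TARS libraries with torkinib lay above the untreated ones in AU565 and below them in 94T778, A375, SKMEL28 and SKBR3. TARS had log2 fold changes of -0.77 in A375, -0.65 in SKMEL28, -0.86 in 94T778, -0.35 in SKBR3 and 0.34 in AU565 (SE 0.074 to 0.078), and all 5 passed the test. EPRS encodes a fused enzyme for glutamate and proline, a member of the complex. EPRS stood at 276 and 251 CPM with torkinib against 305 and 326 CPM untreated in 94T778, at 436 and 436 CPM with torkinib against 876 and 842 CPM untreated in A375 and at 283 and 268 CPM with torkinib against 332 and 338 CPM untreated in SKMEL28. For EPRS the breast lines gave 434 and 475 CPM with torkinib against 448 and 482 CPM untreated in SKBR3 and 699 and 731 CPM with torkinib against 503 and 527 CPM untreated in AU565. EPRS libraries with torkinib lay above the untreated ones in AU565 and below them in 94T778, A375 and SKMEL28, and the groups overlapped in SKBR3. EPRS had log2 fold changes of -0.98 in A375, -0.28 in SKMEL28, -0.26 in 94T778, -0.033 in SKBR3 and 0.47 in AU565 (SE 0.073 to 0.076), and all passed except SKBR3 (adjusted p = 0.773). The EPRS result in 94T778 no longer passed without untreated replicate 2 or torkinib replicate 2, or with library totals in place of TMM factors, where it was -0.21 to -0.15 with adjusted p of 0.0829 to 0.122.

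**Figure D2:**
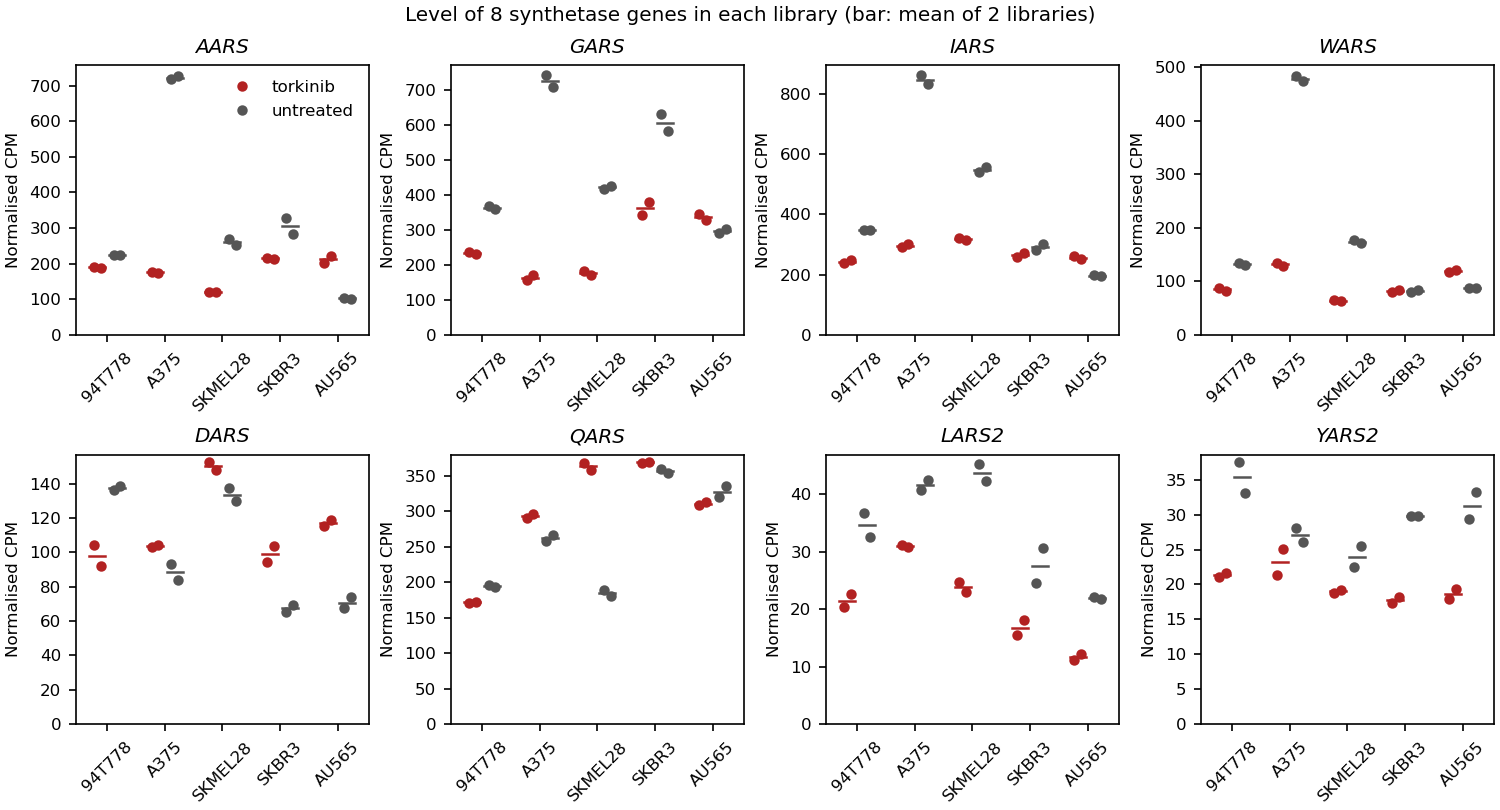
Normalised CPM of 8 synthetase genes in each of 20 libraries (points; bars are means of 2 libraries), torkinib beside untreated in each line. AARS in AU565 stood at 203 and 223 CPM with torkinib against 105 and 101 CPM untreated, and in A375 at 177 and 175 CPM with torkinib against 718 and 726 CPM untreated.

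DARS and RARS rose in AU565 as well, yet they rose also in SKBR3 and A375 and fell in 94T778. DARS encodes the aspartyl enzyme of the complex. DARS stood at 104 and 91.9 CPM with torkinib against 137 and 139 CPM untreated in 94T778, at 103 and 104 CPM with torkinib against 93.01 and 84.04 CPM untreated in A375 and at 153 and 148 CPM with torkinib against 137 and 129.9 CPM untreated in SKMEL28. For DARS the breast lines gave 94.4 and 104 CPM with torkinib against 65.3 and 69.5 CPM untreated in SKBR3 and 115 and 119 CPM with torkinib against 67.3 and 73.8 CPM untreated in AU565. DARS libraries with torkinib lay above the untreated ones in A375, SKMEL28, SKBR3 and AU565 and below them in 94T778. DARS had log2 fold changes of 0.23 in A375, 0.17 in SKMEL28, -0.49 in 94T778, 0.56 in SKBR3 and 0.73 in AU565 (SE 0.080 to 0.092), and all passed except SKMEL28 (adjusted p = 0.0771). The DARS result in A375 no longer passed without untreated replicate 2, torkinib replicate 1 or torkinib replicate 2, or with no filter on low counts, where it was 0.15 to 0.24 with adjusted p of 0.103 to 0.295. RARS encodes the arginyl enzyme of the same complex. RARS stood at 129.9 and 122 CPM with torkinib against 213 and 194 CPM untreated in 94T778, at 236 and 242 CPM with torkinib against 201 and 195 CPM untreated in A375 and at 137 and 132 CPM with torkinib against 134 and 139 CPM untreated in SKMEL28. For RARS the breast lines gave 156 and 146 CPM with torkinib against 119 and 126 CPM untreated in SKBR3 and 183 and 176 CPM with torkinib against 138 and 148 CPM untreated in AU565. RARS libraries with torkinib lay above the untreated ones in A375, SKBR3 and AU565 and below them in 94T778, and the groups overlapped in SKMEL28. RARS had log2 fold changes of 0.27 in A375, -0.019 in SKMEL28, -0.69 in 94T778, 0.30 in SKBR3 and 0.33 in AU565 (SE 0.075 to 0.081), and all passed except SKMEL28 (adjusted p = 0.911).

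The other 8 cytosolic genes did not rise in AU565, where 4 of them fell: FARSA, FARSB, HARS and VARS. FARSA encodes the catalytic subunit of the phenylalanyl enzyme. FARSA stood at 42.2 and 46.2 CPM with torkinib against 59.3 and 52.6 CPM untreated in 94T778, at 216 and 188 CPM with torkinib against 219 and 233 CPM untreated in A375 and at 63.3 and 62.7 CPM with torkinib against 60.02 and 56.3 CPM untreated in SKMEL28. For FARSA the breast lines gave 51.9 and 49.1 CPM with torkinib against 99.3 and 96.8 CPM untreated in SKBR3 and 43.8 and 42.05 CPM with torkinib against 64.03 and 65.7 CPM untreated in AU565. FARSA libraries with torkinib lay above the untreated ones in SKMEL28 and below them in 94T778, A375, SKBR3 and AU565. FARSA had log2 fold changes of -0.15 in A375, 0.12 in SKMEL28, -0.34 in 94T778, -0.96 in SKBR3 and -0.60 in AU565 (SE 0.077 to 0.099), and all passed except A375 and SKMEL28 (adjusted p = 0.104 and 0.312). The FARSA result in 94T778 no longer passed without untreated replicate 1 or torkinib replicate 1, or with library totals in place of TMM factors, where it was -0.27 to -0.23 with adjusted p of 0.0562 to 0.107. FARSB, the other subunit, had log2 fold changes of -0.72 in SKBR3 and -0.62 in AU565, fell by 0.25 in A375, and did not pass in 94T778 or SKMEL28. HARS encodes the histidyl enzyme. HARS stood at 77.97 and 69.9 CPM with torkinib against 103 and 109 CPM untreated in 94T778, at 153 and 145 CPM with torkinib against 168 and 167 CPM untreated in A375 and at 67.5 and 70.4 CPM with torkinib against 92.7 and 95.2 CPM untreated in SKMEL28. For HARS the breast lines gave 124 and 115 CPM with torkinib against 199 and 187 CPM untreated in SKBR3 and 99.9 and 105 CPM with torkinib against 167 and 164 CPM untreated in AU565. HARS libraries with torkinib lay below the untreated ones in all 5 lines. HARS had log2 fold changes of -0.17 in A375, -0.45 in SKMEL28, -0.52 in 94T778, -0.69 in SKBR3 and -0.69 in AU565 (SE 0.077 to 0.084), and all passed except A375 (adjusted p = 0.0737). VARS, for the valyl enzyme, fell in every line except SKMEL28, with log2 fold changes of -0.47 in 94T778, -0.51 in A375, -0.65 in SKBR3 and -0.66 in AU565.

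QARS, for the glutaminyl enzyme, rose in SKMEL28 and was the 1 cytosolic gene that did. QARS stood at 171 and 172 CPM with torkinib against 196 and 193 CPM untreated in 94T778, at 289.9 and 297 CPM with torkinib against 258 and 267 CPM untreated in A375 and at 368 and 358 CPM with torkinib against 189 and 180.0 CPM untreated in SKMEL28. For QARS the breast lines gave 367 and 369.8 CPM with torkinib against 359.7 and 354 CPM untreated in SKBR3 and 308 and 313 CPM with torkinib against 319 and 336 CPM untreated in AU565. QARS libraries with torkinib lay above the untreated ones in A375, SKMEL28 and SKBR3 and below them in 94T778 and AU565. QARS had log2 fold changes of 0.16 in A375, 0.98 in SKMEL28, -0.18 in 94T778, 0.046 in SKBR3 and -0.076 in AU565 (SE 0.069 to 0.073), and all passed except A375, SKBR3 and AU565 (adjusted p = 0.0664, 0.629 and 0.373). The QARS result in 94T778 no longer passed without untreated replicate 1, untreated replicate 2, torkinib replicate 1 or torkinib replicate 2, or with upper quartile factors, library totals in place of TMM factors or no filter on low counts, where it was -0.20 to -0.069 with adjusted p of 0.0775 to 0.476. KARS encodes the lysyl enzyme of cytosol and mitochondrion. KARS stood at 125 and 123 CPM with torkinib against 179.8 and 166 CPM untreated in 94T778, at 359.9 and 349 CPM with torkinib against 303 and 296 CPM untreated in A375 and at 144 and 146 CPM with torkinib against 132 and 144 CPM untreated in SKMEL28. For KARS the breast lines gave 209.6 and 214 CPM with torkinib against 267 and 274 CPM untreated in SKBR3 and 146 and 149 CPM with torkinib against 159 and 164 CPM untreated in AU565. KARS libraries with torkinib lay above the untreated ones in A375 and SKMEL28 and below them in 94T778, SKBR3 and AU565. KARS had log2 fold changes of 0.24 in A375, 0.066 in SKMEL28, -0.48 in 94T778, -0.35 in SKBR3 and -0.13 in AU565 (SE 0.070 to 0.076), and all passed except SKMEL28 and AU565 (adjusted p = 0.522 and 0.138). The KARS result in A375 no longer passed without untreated replicate 2 or torkinib replicate 1, or with no filter on low counts, where it was 0.21 to 0.22 with adjusted p of 0.0519 to 0.0583.

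LARS encodes the leucyl enzyme, which also serves as a leucine sensor upstream of MTOR complex 1. LARS stood at 137 and 133 CPM with torkinib against 172 and 179.9 CPM untreated in 94T778, at 344 and 355 CPM with torkinib against 509 and 482 CPM untreated in A375 and at 304 and 293 CPM with torkinib against 307 and 326 CPM untreated in SKMEL28. For LARS the breast lines gave 309.6 and 322 CPM with torkinib against 258 and 283 CPM untreated in SKBR3 and 372 and 377 CPM with torkinib against 334 and 352 CPM untreated in AU565. LARS libraries with torkinib lay above the untreated ones in SKBR3 and AU565 and below them in 94T778, A375 and SKMEL28. LARS had log2 fold changes of -0.50 in A375, -0.086 in SKMEL28, -0.38 in 94T778, 0.22 in SKBR3 and 0.13 in AU565 (SE 0.072 to 0.078), and all passed except SKMEL28 and AU565 (adjusted p = 0.364 and 0.132). The LARS result in SKBR3 no longer passed without both doubted libraries, untreated replicate 1 or torkinib replicate 2, or with the fit of the 4 libraries alone, where it was 0.15 to 0.24 with adjusted p of 0.0532 to 0.129. NARS, for the asparaginyl enzyme, fell in 94T778, A375 and SKMEL28 by 0.43, 0.97 and 0.75 on the log2 scale, and had changes of -0.14 in SKBR3 (edgeR adjusted p = 0.121) and -0.068 in AU565 (edgeR adjusted p = 0.466).

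The response differed between lines for all 20 cytosolic genes and for 10 of 15 mitochondrial ones (edgeR F test over the 5 responses, which called 68.4% of all genes). The mitochondrial count was near that share. The 5 contrasts set each line against the mean of the other 4, and a further pair set A375 against SKMEL28 and SKBR3 against AU565; they share libraries. AU565 minus the other 4 lines was higher for 14 cytosolic genes and lower for 4, beside 14.2% of all genes higher and 17.7% lower, and for mitochondrial genes 1 was higher and 2 lower. The difference for AARS was 2.02 (SE 0.089, edgeR adjusted p = 2.24e-19), for MARS 1.67 (SE 0.087, edgeR adjusted p = 2.52e-17) and for CARS 1.49 (SE 0.11, edgeR adjusted p = 4.12e-13). 94T778 minus the others was higher for 7 cytosolic and 1 mitochondrial genes, beside 16.6% of all genes, and lower for 6 and 0, beside 13.2%. A375 minus the others was higher for 4 cytosolic and 5 mitochondrial genes, beside 15.8% of all genes, and lower for 12 and 1, beside 16.9%. SKMEL28 minus the others was higher for 5 cytosolic and 3 mitochondrial genes, beside 16.0% of all genes, and lower for 9 and 0, beside 14.5%. SKBR3 minus the others was higher for 8 cytosolic and 0 mitochondrial genes, beside 17.6% of all genes, and lower for 5 and 3, beside 19.0%. Near the share were the cytosolic count higher in A375 and the mitochondrial counts lower in AU565 and higher in SKMEL28. Both counts lower in SKBR3 were near it too. SKBR3 minus AU565, breast lines at different doses, was lower for 10 cytosolic genes and higher for none, beside 10.8% and 13.0% of all genes. There 2 mitochondrial genes, EARS2 and VARS2, were lower, a count near that 10.8%. AARS had the largest such difference, -1.56 (SE 0.11, edgeR adjusted p = 4.2e-13). A375 minus SKMEL28, melanoma lines at the same dose, was lower for 11 cytosolic genes and higher for 1, RARS, beside 15.1% and 13.4% of all genes. SARS differed by -1.12 (SE 0.10, edgeR adjusted p = 7.67e-11), whereas MARS differed by 0.0093 (SE 0.11, edgeR adjusted p = 1) and had fallen in each of the melanoma lines.

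Untreated levels differed between lines for most genes tested, these members included. All 20 cytosolic and 14 of 15 mitochondrial genes differed between the 5 untreated groups (edgeR F test, which called 96.3% of all genes). Both counts were near that share. Untreated A375 had the highest mean for 12 of the 20 cytosolic genes. The lowest mean was that of untreated AU565 for 7 and of untreated 94T778 for 6. These counts were not set beside those of all genes. Torkinib-treated AARS averaged 176 ± 1.32 CPM in A375, 121 ± 0.718 CPM in SKMEL28, 189.9 ± 2.88 CPM in 94T778, 215 ± 1.56 CPM in SKBR3 and 213 ± 14.04 CPM in AU565 (SD, n = 2 each), against untreated means of 722 ± 5.27 CPM in A375, 262 ± 12.3 CPM in SKMEL28, 224 ± 0.619 CPM in 94T778, 306 ± 30.4 CPM in SKBR3 and 103 ± 2.91 CPM in AU565. The highest line exceeded the lowest by 1.78 times with torkinib and by 7.02 times untreated. For YARS that ratio was 1.15 with torkinib and 4.81 untreated, for IARS 1.31 and 4.30, and for WARS 2.06 and 5.87. Over the cytosolic genes the ratio was smaller with torkinib for 13 of 20, with a median of 2.18 with torkinib and 2.62 untreated. It was smaller for 8 of 15 mitochondrial genes, with medians of 2.39 and 2.08, and for 56.2% of 7998 genes above 5 CPM in every group mean. These ratios are a description, since a gene's untreated level also enters its change.

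**Figure D3:**
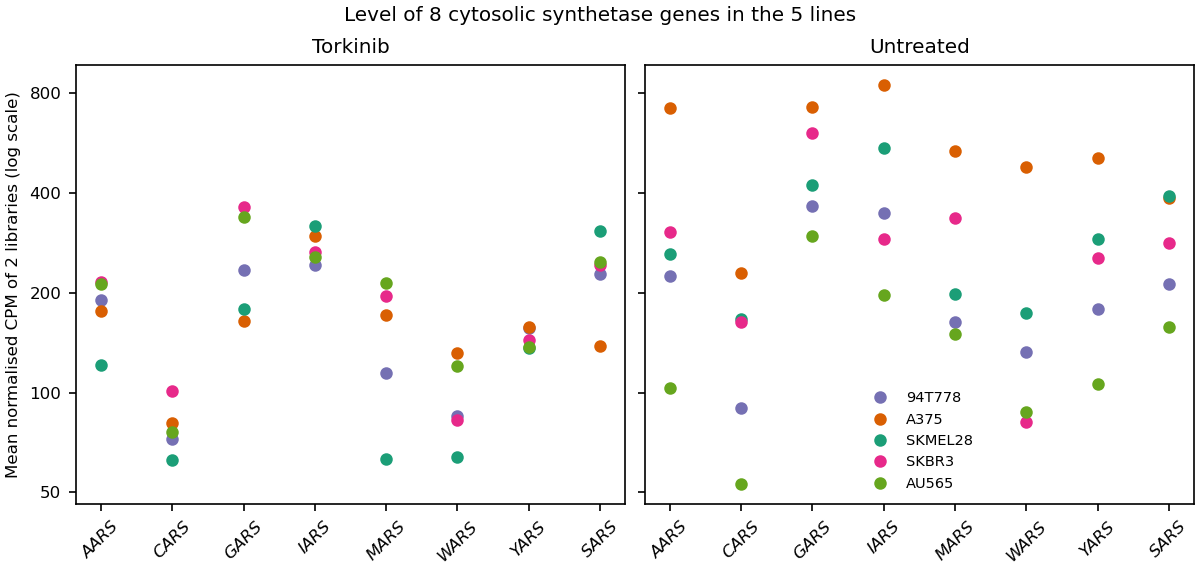
Mean normalised CPM (log axis) of 8 cytosolic synthetase genes, chosen after their values were seen, in the 5 lines with torkinib (left) and untreated (right). The spread of AARS over lines is 1.78 times with torkinib and 7.02 times untreated, and A375 stands highest untreated for 7 of the 8 genes.

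Among mitochondrial enzymes, LARS2 was the member that fell in every line. LARS2 encodes the mitochondrial leucyl enzyme. LARS2 stood at 20.3 and 22.6 CPM with torkinib against 36.7 and 32.5 CPM untreated in 94T778, at 31.1 and 30.8 CPM with torkinib against 40.6 and 42.4 CPM untreated in A375 and at 24.7 and 23.03 CPM with torkinib against 45.2 and 42.2 CPM untreated in SKMEL28. For LARS2 the breast lines gave 15.5 and 18.03 CPM with torkinib against 24.5 and 30.7 CPM untreated in SKBR3 and 11.2 and 12.2 CPM with torkinib against 22.1 and 21.7 CPM untreated in AU565. LARS2 libraries with torkinib lay below the untreated ones in all 5 lines. LARS2 had log2 fold changes of -0.42 in A375, -0.86 in SKMEL28, -0.69 in 94T778, -0.72 in SKBR3 and -0.90 in AU565 (SE 0.11 to 0.15), and all 5 passed the test. All 5 falls passed in each alternative. A fall in all 5 lines was found for 1 of 35 members, beside 4.62% of all genes, so this count was near the share of all genes. No difference between lines was found for it (edgeR F test, adjusted p = 0.0978), with A375 at one end and AU565 at the other.

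YARS2 encodes the mitochondrial tyrosyl enzyme. YARS2 stood at 21.1 and 21.7 CPM with torkinib against 37.6 and 33.1 CPM untreated in 94T778, at 21.3 and 25.1 CPM with torkinib against 28.1 and 26.02 CPM untreated in A375 and at 18.8 and 19.2 CPM with torkinib against 22.5 and 25.4 CPM untreated in SKMEL28. For YARS2 the breast lines gave 17.3 and 18.2 CPM with torkinib against 29.8 and 29.8 CPM untreated in SKBR3 and 17.9 and 19.3 CPM with torkinib against 29.4 and 33.2 CPM untreated in AU565. YARS2 libraries with torkinib lay below the untreated ones in all 5 lines. YARS2 had log2 fold changes of -0.23 in A375, -0.35 in SKMEL28, -0.72 in 94T778, -0.74 in SKBR3 and -0.74 in AU565 (SE 0.12 to 0.14), and all passed except A375 (adjusted p = 0.138). The YARS2 result in SKMEL28 no longer passed without untreated replicate 2, torkinib replicate 1 or torkinib replicate 2, or with upper quartile factors, no filter on low counts or DESeq2, where it was -0.36 to -0.24 with adjusted p of 0.069 to 0.318. HARS2 and TARS2, for the histidyl and threonyl enzymes, also fell in 4 lines, HARS2 in all but A375 and TARS2 in all but SKMEL28, on average by 0.42 and 0.32 on the log2 scale. IARS2, for the isoleucyl enzyme, fell in SKMEL28, SKBR3 and AU565, by 0.57 in AU565, where it stood at 379 and 373 CPM with torkinib against 560.1 and 556 CPM untreated. MARS2 and EARS2, for methionine and glutamate, fell in 2 lines each, and AARS2 in SKBR3 alone; neither AARS2 nor FARS2 showed a difference between lines (edgeR F test, adjusted p = 0.212 and 0.327).

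PARS2 had values above 0 in each line. PARS2 encodes the mitochondrial prolyl enzyme. PARS2 stood at 11.5 and 10.96 CPM with torkinib against 8.89 and 9.42 CPM untreated in 94T778, at 11.9 and 14.8 CPM with torkinib against 8.71 and 11.1 CPM untreated in A375 and at 13.4 and 12.3 CPM with torkinib against 11.7 and 10.8 CPM untreated in SKMEL28. For PARS2 the breast lines gave 12.5 and 14.7 CPM with torkinib against 8.64 and 10.6 CPM untreated in SKBR3 and 16.9 and 14.2 CPM with torkinib against 7.76 and 8.37 CPM untreated in AU565. PARS2 libraries with torkinib lay above the untreated ones in all 5 lines. PARS2 had log2 fold changes of 0.40 in A375, 0.21 in SKMEL28, 0.29 in 94T778, 0.50 in SKBR3 and 0.94 in AU565 (SE 0.17 to 0.19), and all passed except A375, SKMEL28 and 94T778 (adjusted p = 0.0701, 0.335 and 0.205). The PARS2 result in SKBR3 no longer passed without both doubted libraries, untreated replicate 1 or torkinib replicate 2, or with no filter on low counts, DESeq2 or the fit of the 4 libraries alone, where it was 0.35 to 0.53 with adjusted p of 0.0571 to 0.264. FARS2 encodes the mitochondrial phenylalanyl enzyme and was counted at low levels. FARS2 stood at 8.34 and 7.18 CPM with torkinib against 9.57 and 11.9 CPM untreated in 94T778, at 6.25 and 5.06 CPM with torkinib against 8.97 and 9.43 CPM untreated in A375 and at 6.55 and 6.91 CPM with torkinib against 8.21 and 8.96 CPM untreated in SKMEL28. For FARS2 the breast lines gave 8.35 and 9.09 CPM with torkinib against 9.93 and 13.1 CPM untreated in SKBR3 and 8.75 and 6.15 CPM with torkinib against 6.70 and 7.82 CPM untreated in AU565. FARS2 libraries with torkinib lay below the untreated ones in 94T778, A375, SKMEL28 and SKBR3, and the groups overlapped in AU565. FARS2 had log2 fold changes of -0.68 in A375, -0.37 in SKMEL28, -0.47 in 94T778, -0.41 in SKBR3 and 0.020 in AU565 (SE 0.20 to 0.22), and all passed except SKMEL28, 94T778, SKBR3 and AU565 (adjusted p = 0.159, 0.0504, 0.0943 and 0.992). The FARS2 result in A375 no longer passed without untreated replicate 2 or torkinib replicate 2, where it was -0.65 to -0.56 with adjusted p of 0.0628 to 0.101.

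Changes that passed in opposite directions in different lines were found for 3 of 15 mitochondrial genes, CARS2, NARS2 and VARS2. This was near the 24.0% of all genes that did so. CARS2 encodes the mitochondrial cysteinyl enzyme. CARS2 stood at 60.7 and 59.1 CPM with torkinib against 51.9 and 63.6 CPM untreated in 94T778, at 81.1 and 74.6 CPM with torkinib against 55.3 and 56.8 CPM untreated in A375 and at 90.3 and 92.2 CPM with torkinib against 80.6 and 77.8 CPM untreated in SKMEL28. For CARS2 the breast lines gave 89.6 and 80.7 CPM with torkinib against 122 and 97.97 CPM untreated in SKBR3 and 45.7 and 50.4 CPM with torkinib against 49.9 and 52.7 CPM untreated in AU565. CARS2 libraries with torkinib lay above the untreated ones in A375 and SKMEL28 and below them in SKBR3, and the groups overlapped in 94T778 and AU565. CARS2 had log2 fold changes of 0.48 in A375, 0.21 in SKMEL28, 0.051 in 94T778, -0.37 in SKBR3 and -0.087 in AU565 (SE 0.096 to 0.11), and all passed except SKMEL28, 94T778 and AU565 (adjusted p = 0.077, 0.744 and 0.532). The CARS2 result in SKBR3 no longer passed without both doubted libraries or untreated replicate 1, or with the fit of the 4 libraries alone, where it was -0.35 to -0.21 with adjusted p of 0.0549 to 0.0721. NARS2 encodes the mitochondrial asparaginyl enzyme. NARS2 stood at 30.8 and 28.2 CPM with torkinib against 25.6 and 28.6 CPM untreated in 94T778, at 21.9 and 24.03 CPM with torkinib against 32.5 and 31.99 CPM untreated in A375 and at 109.9 and 117 CPM with torkinib against 64.7 and 75.4 CPM untreated in SKMEL28. For NARS2 the breast lines gave 35.8 and 34.1 CPM with torkinib against 35.1 and 39.2 CPM untreated in SKBR3 and 43.8 and 35.3 CPM with torkinib against 38.5 and 46.1 CPM untreated in AU565. NARS2 libraries with torkinib lay above the untreated ones in SKMEL28 and below them in A375, and the groups overlapped in 94T778, SKBR3 and AU565. NARS2 had log2 fold changes of -0.49 in A375, 0.68 in SKMEL28, 0.12 in 94T778, -0.095 in SKBR3 and -0.10 in AU565 (SE 0.094 to 0.13), and all passed except 94T778, SKBR3 and AU565 (adjusted p = 0.467, 0.568 and 0.48). The NARS2 result in A375 no longer passed without torkinib replicate 1, where it was -0.42 with adjusted p of 0.0617. Between A375 and SKMEL28, at the same dose, NARS2 differed by -1.18 (SE 0.16, edgeR adjusted p = 4.58e-07).

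VARS2 encodes the mitochondrial valyl enzyme. VARS2 stood at 46.3 and 42.97 CPM with torkinib against 33.3 and 31.95 CPM untreated in 94T778, at 30.3 and 29.7 CPM with torkinib against 31.00 and 32.5 CPM untreated in A375 and at 56.4 and 58.4 CPM with torkinib against 62.2 and 50.5 CPM untreated in SKMEL28. For VARS2 the breast lines gave 72.5 and 67.2 CPM with torkinib against 89.00 and 78.6 CPM untreated in SKBR3 and 70.4 and 73.4 CPM with torkinib against 69.9 and 61.8 CPM untreated in AU565. VARS2 libraries with torkinib lay above the untreated ones in 94T778 and AU565 and below them in A375 and SKBR3, and the groups overlapped in SKMEL28. VARS2 had log2 fold changes of -0.079 in A375, 0.044 in SKMEL28, 0.45 in 94T778, -0.26 in SKBR3 and 0.12 in AU565 (SE 0.095 to 0.12), and all passed except A375, SKMEL28 and AU565 (adjusted p = 0.636, 0.788 and 0.282). The VARS2 result in SKBR3 no longer passed without both doubted libraries, untreated replicate 1 or torkinib replicate 2, or with DESeq2 or the fit of the 4 libraries alone, where it was -0.25 to -0.18 with adjusted p of 0.106 to 0.165. WARS2, for the mitochondrial tryptophanyl enzyme, rose in SKMEL28. WARS2 stood at 28.7 and 28.98 CPM with torkinib against 27.9 and 25.6 CPM untreated in 94T778, at 29.9 and 30.99 CPM with torkinib against 28.2 and 24.1 CPM untreated in A375 and at 57.4 and 53.8 CPM with torkinib against 33.8 and 33.1 CPM untreated in SKMEL28. For WARS2 the breast lines gave 22.3 and 20.3 CPM with torkinib against 20.04 and 27.6 CPM untreated in SKBR3 and 25.9 and 26.4 CPM with torkinib against 27.8 and 25.8 CPM untreated in AU565. WARS2 libraries with torkinib lay above the untreated ones in 94T778, A375 and SKMEL28, and the groups overlapped in SKBR3 and AU565. WARS2 had log2 fold changes of 0.22 in A375, 0.74 in SKMEL28, 0.11 in 94T778, -0.19 in SKBR3 and -0.039 in AU565 (SE 0.11 to 0.14), and all passed except A375, 94T778, SKBR3 and AU565 (adjusted p = 0.168, 0.508, 0.293 and 0.856). RARS2, for the arginyl enzyme, rose in SKMEL28 and AU565 by 0.26 and 0.31 on the log2 scale.

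Summed over the 20 genes, cytosolic synthetase transcripts stood at 4097 ± 16.6 CPM with torkinib and 8135 ± 103 CPM untreated in A375 (SD, n = 2 each). They stood at 4364 ± 33.1 CPM with torkinib and 3783 ± 90.1 CPM untreated in AU565. The other sums were 2754 ± 81.9 CPM with torkinib and 3659 ± 25.3 CPM untreated in 94T778, 3385 ± 50.8 CPM with torkinib and 4672 ± 26.2 CPM untreated in SKMEL28 and 4187 ± 97.5 CPM with torkinib and 5213 ± 52.5 CPM untreated in SKBR3, so the AU565 sum was the one that was higher with torkinib. The 15 mitochondrial genes summed to 719.7 ± 5.64 CPM with torkinib and 928 ± 43.4 CPM untreated in SKBR3, and to 875 ± 2.84 CPM with torkinib and 1133 ± 5.66 CPM untreated in AU565. In 94T778, A375 and SKMEL28 the ratio of torkinib to untreated sums was 0.924, 0.937 and 0.989 for mitochondrial genes and 0.753, 0.504 and 0.725 for cytosolic ones. The libraries are bulk samples, so fewer transcripts per cell and a change in the rest of the RNA cannot be told apart.

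Enzymes for the same amino acid gave 16 pairs of a cytosolic and a mitochondrial gene, counting EPRS with EARS2 and PARS2 and both FARS subunits with FARS2. The cytosolic change was the lower of the pair in 13 pairs in A375, 11 in 94T778, 10 in SKMEL28, 10 in SKBR3 and 5 in AU565. The median difference, cytosolic minus mitochondrial, was -0.66, -0.36, -0.51, -0.098 and 0.50 on the log2 scale in that order of lines. Both genes of a pair fell in 4 pairs each in 94T778, A375 and SKMEL28, in 7 in SKBR3 and in 1 in AU565. Opposite directions were found for 1 pair each in 94T778, A375 and SKBR3, for 2 in SKMEL28 and for 4 in AU565. No share of such pairs over all genes was worked out, so these counts are a description. Members of the multi-synthetase complex moved both ways in A375, SKMEL28 and SKBR3, so their medians there do not give the size of their changes. The median was -0.17 for 8 complex genes and -1.22 for 12 others in A375, -0.053 and -0.70 in SKMEL28, and 0.0065 and -0.67 in SKBR3. The complex genes ran from -1.64 (MARS) to 0.27 (RARS) in A375 and from -1.65 (MARS) to 0.98 (QARS) in SKMEL28. In 94T778 all 8 complex genes fell, with a median of -0.49 beside -0.39 for the others. Structural class, the fold of the catalytic domain, gave cytosolic medians of -1.51 for 9 class I genes and -0.51 for 10 class II genes in A375. The medians were -0.78 and -0.40 in SKMEL28 and 0.36 and 0.059 in AU565. They were close in 94T778, at -0.47 and -0.46, and in SKBR3 class II was the lower, at -0.13 and -0.43. These groupings were not tested.

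Promoters were searched for TGATGNAA on both strands, the core of the composite element that ATF4 binds with C/EBP proteins. RefSeq windows (GRCh38.p14, 250 bases before to 50 after the start) matched 16 of 20 cytosolic and 14 of 16 mitochondrial genes, SARS2 among them. Their coordinates are of another build than that of the count files. The letters stood in 5 of the 16 cytosolic windows (AARS, GARS, IARS, MARS and NARS) and in 1 of the 14 mitochondrial ones (YARS2), against 3.62% of 35114 windows of the same length. The stretches upstream of the start are shown since AARS, GARS and IARS fell in both melanoma lines and rose in AU565 and YARS2 did not rise. They lie at chr16:70289670-70289709 for AARS, chr7:30594829-30594868 for GARS, chr9:92293698-92293726 for IARS and chr12:32756071-32756110 for YARS2. Each reads 5′ to 3′ on the gene's strand (minus for AARS, IARS and YARS2, plus for GARS), with the element, or its reverse complement, in capitals:
AARS: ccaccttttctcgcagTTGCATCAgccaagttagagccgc
GARS: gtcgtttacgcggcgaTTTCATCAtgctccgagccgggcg
IARS: ccgcattttcagcgcgTTGCATCAcctcc
YARS2: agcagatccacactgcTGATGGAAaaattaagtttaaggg
In AARS and IARS the capitals are the same 8 letters on the same strand, 187 and 13 bases before the start, and GARS has its own variant of them 33 bases before the start. Of the cytosolic genes that rose in AU565, 4 of 10 with a window held the letters, and of the others 1 of 6, NARS. A link between the letters and the response was not tested. The palindrome of the respiratory factor NRF1, with 1 free base in its middle, stood in 3 of 16 cytosolic windows (FARSB, SARS and TARS) and 3 of 14 mitochondrial ones (IARS2, MARS2 and PARS2), against 5.78% of all windows. A match describes the letters and is no evidence of binding.

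HARS and HARS2 stand head to head on chromosome 5, and the cytosolic and mitochondrial histidyl genes both had negative values in each line. HARS had -0.52 and HARS2 -0.29 in 94T778, then -0.17 and -0.16 in A375, -0.45 and -0.45 in SKMEL28, -0.69 and -0.57 in SKBR3, and -0.69 and -0.63 in AU565. HARS2 stood at 68.1 and 60.9 CPM with torkinib against 99.3 and 100.3 CPM untreated in AU565 and at 71.7 and 62.1 CPM with torkinib against 101 and 97.4 CPM untreated in SKBR3. The 84 bases between their starts (GRCh38.p14 chr5:140691371-140691454, plus strand, on which HARS2 is read) are shown because both genes start from them, HARS leftwards and HARS2 rightwards:
HARS to HARS2: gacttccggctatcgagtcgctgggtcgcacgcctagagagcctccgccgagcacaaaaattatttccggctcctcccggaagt
The genes are close relatives, the strand setting of the counts is not given, and how reads were split between the pair was not tested.

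Genes of the ATF4 and amino acid response list fell in most members in 4 lines, with more rises than falls in AU565. Of 29 measured members, 18 fell and 7 rose in 94T778, 27 and 1 in A375, 25 and 2 in SKMEL28, and 23 and 2 in SKBR3. In AU565 13 rose and 9 fell. Beside these, 23.8% of all genes fell and 23.8% rose in 94T778, 24.3% and 18.5% in A375, 23.7% and 20.4% in SKMEL28, 26.7% and 24.6% in SKBR3, and 28.6% and 26.9% in AU565, so the rises in 94T778 and the falls in AU565 were near the share of all genes. The list's median change was -0.57, -1.95, -1.10, -0.81 and 0.23 in 94T778, A375, SKMEL28, SKBR3 and AU565. ATF4 itself, named with ASNS after values were seen, rose by 1.44 in AU565 and 0.65 in 94T778, fell by 0.72 in A375 and 0.40 in SKBR3, and had 0.020 in SKMEL28 (edgeR adjusted p = 0.905). ASNS, the asparagine synthetase, had log2 fold changes of -3.38 in A375, -3.37 in SKMEL28 and 1.37 in AU565. The 4 members with the smallest p on the average were DDIT4, an inhibitor of MTOR, at -3.07, PSAT1 and PHGDH of serine synthesis at -1.98 and -1.77, and MTHFD2 of mitochondrial folate metabolism at -1.36. DDIT4 fell in AU565 too, by 2.43. The means of the other 3 were also lower with torkinib there. PSAT1 averaged 54.7 CPM with torkinib against 69.2 CPM untreated, PHGDH 76.4 against 81.3 CPM and MTHFD2 268 against 362 CPM.

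**Figure D4:**
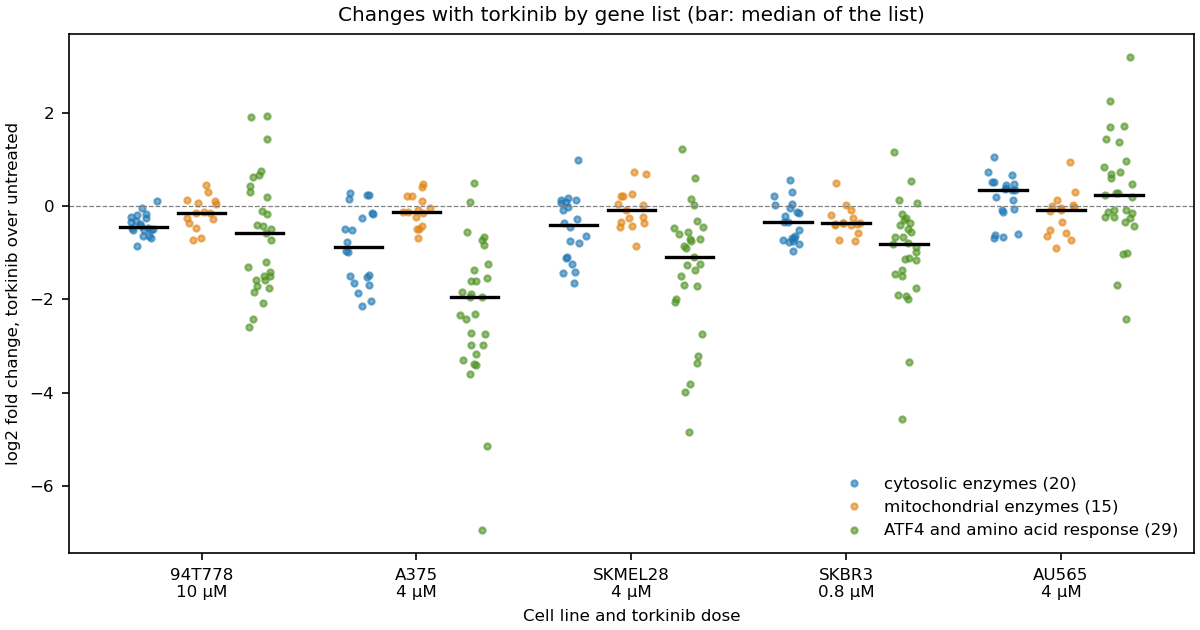
Log2 fold changes (torkinib over untreated) of cytosolic enzymes (20 genes), mitochondrial enzymes (15) and the ATF4 and amino acid response list (29) in each line; points are genes and bars medians. The cytosolic median is -0.87 in A375 and 0.34 in AU565, and that of the ATF4 list -1.95 and 0.23.

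Of 9 genes for complex scaffolds and related factors, 5 fell and 1 rose on the average, beside 28.1% of all genes lower and 28.4% higher. In AU565 3 fell and 1 rose, beside 28.6% of all genes lower and 26.9% higher, so the falls were near the share. In SKMEL28 2 fell and 3 rose, with a median of 0.034. There 23.7% of all genes fell and 20.4% rose, so the falls were near the share. EEF1E1, a scaffold of the complex, fell by 0.94 on average and in all 5 lines, and of the other scaffolds, named after values were seen, AIMP2 fell by 0.20, while AIMP1 had a change of 0.011 (edgeR adjusted p = 0.96). SEPHS1, a relative of the selenophosphate synthetase, and SEPHS2, that enzyme, fell by 0.57 and 0.31 on the average, although SEPHS2 rose in SKMEL28, and DTD1, which removes D-amino acids from tRNA, fell by 0.31. Of 28 genes of tRNA maturation, 14 fell and 4 rose on the average, beside the same shares of all genes. By line, A375 had 7 falls and 9 rises (median 0.17), beside 24.3% of all genes lower and 18.5% higher. SKMEL28 had 9 falls and 7 rises (median 0.079), beside 23.7% and 20.4%. 94T778 had 12 falls and 4 rises, beside 23.8% and 23.8%. SKBR3 had 14 falls and 0 rises, beside 26.7% and 24.6%. AU565 had 15 falls and 4 rises, beside 28.6% and 26.9%. Near the share were the A375 falls and the SKMEL28 rises. Averaged over lines, log2 fold changes put TSEN15 of the tRNA splicing endonuclease at -1.08, POP7 of RNase P at -1.02 and WDR4 of a tRNA methyltransferase at -0.84. XPOT, the export receptor for tRNA, fell by 1.36 in A375 and 0.95 in SKMEL28 and rose by 0.63 in AU565. Of 25 measured genes for mitochondrial tRNA and translation (GATB had no match), 10 fell and 5 rose on the average, beside 28.1% of all genes lower and 28.4% higher. In A375 4 fell and 4 rose, with a median of 0.045, beside 24.3% of all genes lower and 18.5% higher, so the rises were near the share. HSD17B10 and KIAA0391, subunits of mitochondrial RNase P, fell by 0.66 and 0.69. TUFM, the elongation factor that carries charged tRNA, fell by 0.40 but rose in SKMEL28, and MRRF, the ribosome recycling factor, rose by 0.71.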

How the data were processed

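Messenger RNA of 20 libraries was measured by RNA-seq. The authors deposited whole-number read counts per gene symbol, 1 file per library. The submitters' processing notes list HISAT2 2.04, HTSeq 0.6.1, limma 3.34.9 and build hg19 without their roles. Neither the annotation nor the strand setting of the counts is stated there. Counted reads were 4040023 to 9737903 per library, 47.8% to 62.4% of the reads listed. The rows that name no gene held 16.1% to 30.8% not aligned, 9.32% to 15.1% aligned to several places, 5.43% to 7.83% without a feature, 2.96% to 5.36% of low quality and 1.08% to 1.57% ambiguous, and were left out.

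Counts were fitted over all 20 libraries with edgeR 4.0.16 in R 4.3.3, using its filter on low counts, TMM factors and the quasi-likelihood test on 10 group means. P-values were adjusted by Benjamini-Hochberg over 16698 genes, with a threshold of 0.05. SE is the absolute log2 fold change over the square root of F, and CPM are TMM-normalised. CPM are not scaled by gene length, so levels are compared between samples only. The common biological coefficient of variation was 0.0547. Fits were tested on simulated data. Members and gene lists were chosen with earlier results of these data known. Values in every library are given for members that passed the same way in all 5 lines or in both directions, and for the largest rise and fall per line and compartment. In other lists, the 4 members with the smallest p on the average of the lines are named. Replicate numbers do not mark a shared source in the labels. Same-numbered torkinib and untreated libraries had correlated deviations of -0.11 in 94T778 to 0.168 in SKBR3, and the numbers were not taken as pairs. Alternatives were RLE, upper quartile or no factors, no filter, DESeq2 1.42.0, limma-voom (limma 3.58.1), each line alone, a replicate block and each library left out.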

Additional observations from a re-analysis of the deposited data

Results flagged for a closer look

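Responses that passed in opposite directions in different lines were found for 18 members, 15 cytosolic and 3 mitochondrial, beside 24.0% of all genes tested. The mitochondrial count, 3 of 15, was near that share. Adjusted p-values of the difference between the 5 responses (edgeR F test) were 1.04e-21 for AARS, 4.68e-15 for CARS, 4.59e-10 for DARS, 7.99e-13 for EPRS, 2.01e-18 for GARS, 7e-17 for IARS, 5.04e-07 for KARS and 1.46e-07 for LARS. They were 1.07e-18 for MARS, 7.5e-12 for QARS, 3.59e-10 for RARS, 1.29e-17 for SARS, 9.3e-12 for TARS, 9.02e-20 for WARS and 2.72e-17 for YARS. Among mitochondrial members they were 4.64e-05 for CARS2, 6.36e-07 for NARS2 and 0.00145 for VARS2. In AU565, 12 of the cytosolic members rose, while DARS and RARS also rose in A375 and SKBR3. No explanation was tested.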

How the results depend on the processing

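With 2 libraries per group, counts near the threshold moved with single libraries. Of 109 results that passed for the 25 members given in full, 20 were lost in at least 1 alternative, and none of 1699 alternative values reversed. With upper quartile factors, 3 mitochondrial members rose in A375 and 5 on the average, 3 cytosolic members rose in SKMEL28, 3 mitochondrial members fell in SKMEL28, and the mitochondrial median in AU565 turned to 0.028. With library totals, 1 cytosolic member rose and 2 mitochondrial members fell in 94T778, and 2 mitochondrial members rose in A375. With no filter, 1 cytosolic member rose in A375, and mitochondrial members that rose numbered 0 in SKBR3, 1 in AU565 and 1 on the average. With DESeq2, 0 mitochondrial members rose in SKBR3 and 1 in AU565, and 6 differed between lines. With each line alone, 3 cytosolic members rose in SKMEL28, and in SKBR3 0 mitochondrial members rose and 6 fell. Without both doubted libraries, chosen after seeing the data, 0 mitochondrial members rose in SKBR3. The cause was not tested. Leaving out each library gave 2 to 6 mitochondrial members that fell in 94T778 and 3 to 5 in SKMEL28, 1 to 3 cytosolic members that rose in A375, and 1 to 2 mitochondrial ones in A375, 0 to 1 in SKBR3 and 1 in AU565. The replicate block changed no count, with 18 cytosolic members lower in 94T778 and 12 higher in AU565. Both of these counts were smaller whenever a library of the line was left out. In 94T778 the results of AARS, CARS, EPRS, FARSA, QARS and YARS were lost in at least 1 alternative, and in AU565 that of GARS. The crossed replicate block in 94T778, also chosen after seeing the data, gave 18 cytosolic and 5 mitochondrial members that fell.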
